A study of Mus musculus with 4 samples.

Results

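Semaphorins, their plexin receptors and the neuropilin co-receptors were followed in single cells of the mouse frontal cortex and hippocampus through 10 genes: the ligands Sema3a, Sema3c, Sema3e, Sema5a and Sema6d, the plexins Plxna2, Plxna4 and Plxnd1, and the neuropilins Nrp1 and Nrp2. The genes were found by symbol among the 43348 genes of the count matrices, where each of the 10 matched.

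The cells came from juvenile mice of postnatal day 18 to 20. They were sorted by the Tomato reporter that Cre expressed from Nkx2.1 switches on in the lineage of the medial ganglionic eminence, and profiled by droplet RNA sequencing. WT mice were compared with Grin1-null mice, in which the same Cre deletes Grin1, the gene of the obligatory NMDA receptor subunit. Each library pooled cells of several animals of both sexes, so that values of single animals could not be recovered. The 4 groups were WT frontal cortex (3 libraries), WT hippocampus (3 libraries), null frontal cortex (2 libraries) and null hippocampus (2 libraries). All groups carried the Cre and the reporter, so effects of either could not be told apart from the lineage they mark.

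Class 3 semaphorins are secreted and bind a receptor complex in which a neuropilin holds the ligand and a plexin A chain carries the signal across the membrane. Sema3e is the exception in this class, since it binds Plxnd1 directly. Semaphorins of classes 5 and 6 span the membrane and act through plexins without a neuropilin. In the developing forebrain these cues steer axons and migrating interneurons, and later they shape dendrites and synapses.

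Values are listed throughout in the order of replicates 1, 2 and 3 for WT and 1 and 2 for null. Before the cell filter, the libraries held 9306756, 14212183 and 28057207 unique molecular identifiers (UMIs) in WT cortex, 10555408, 8782181 and 20639002 in WT hippocampus, 1488601 and 25688337 in null cortex and 3856745 and 47338167 in null hippocampus. Median UMIs per cell, also before the filter, were 7098, 2903 and 6519 in WT cortex, 4411, 1479 and 5741 in WT hippocampus, 6641 and 8225 in null cortex and 8839 and 9508 in null hippocampus. WT replicate 2 was the shallowest per cell in both regions, and null cortex replicate 1 held the fewest UMIs of the 10 libraries. Replicate 1 was made with version 2 of the droplet chemistry and the others with version 3, in all 4 groups. Pairs of libraries shared between 0 and 12 cell barcodes, with 0 in 23 of the 45 pairs, and these cells were kept.

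Clusters were named from marker genes, without the semaphorin, plexin and neuropilin genes among the clustering features. Of the 26201 cells kept, the 3 interneuron classes compared between groups were somatostatin cells (SST, with the cells led by Th counted among them), parvalbumin cells (PVALB) and neurogliaform cells (NGFC). A level is given in CPM, the UMIs of a gene per 1000000 UMIs of that class in that library. Pooled over WT libraries, Sst stood at 14450 CPM in cortical and 11720 CPM in hippocampal SST cells, and Lamp5 at 477 and 498 CPM in NGFC cells. Pvalb stood at 1776 CPM in cortical and 782 CPM in hippocampal PVALB cells, while Sst in the PVALB class was at 463 and 2002 CPM. Gad1, which makes GABA, was between 583 and 2275 CPM in all 3 classes, and Slc17a7, the vesicular glutamate transporter of excitatory neurons, was at or below 1.18 CPM.

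Grin1, the deleted gene, stood in SST cells at 153, 255 and 232 CPM in WT cortex and 37.1 and 28.6 CPM in null cortex, and at 120.2, 176 and 157 CPM in WT hippocampus and 22.9 and 21.9 CPM in null hippocampus. In PVALB cells the levels were 112, 211.5 and 176 CPM in WT cortex, 40.3 and 21.3 CPM in null cortex, 102, 163 and 125 CPM in WT hippocampus and 23.5 and 17.2 CPM in null hippocampus. All null libraries lay below all WT libraries of their region. NGFC cells stood at 115, 181.5 and 168 CPM in WT cortex, 36.3 CPM in the 1 null cortex library with enough cells, 115, 110.4 and 134 CPM in WT hippocampus and 29.7 and 15.4 CPM in null hippocampus. The groups did not overlap there either. The log2 change, null against WT, was -2.70 in cortex and -2.76 in hippocampus for SST cells (edgeR adjusted p 0.0348 and 0.0297). It was -2.63 and -2.80 for PVALB cells (edgeR adjusted p 0.0216 and 0.0991) and -2.09 and -2.48 for NGFC cells (edgeR adjusted p 0.9999 and 0.477). A gene passed at an adjusted p under 0.01 together with a natural-log change of at least 0.1, so the deleted gene itself did not pass in any class.

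The ligands differed in which WT class held them. Sema3a, a repellent for many cortical axons, averaged 38.1 ± 19.3 CPM (mean ± SD over 6 WT libraries) in SST cells, 6.32 ± 5.34 CPM in PVALB cells and 1.33 ± 2.11 CPM in NGFC cells, and was at 0 in astrocytes and microglia. Sema3c, which attracts or repels axons through neuropilins, averaged 265 ± 71.8 CPM in NGFC cells against 12.2 ± 5.43 CPM in SST and 4.89 ± 4.36 CPM in PVALB cells. The lowest NGFC library, at 127 CPM, lay above the highest library of either other interneuron class, and the 1 library with enough endothelial cells held 292 CPM. Sema3e, the ligand of Plxnd1, averaged 30.9 ± 20.8 CPM in SST cells, 17.1 CPM in PVALB cells and 3.44 CPM in NGFC cells. In the order over all classes, glutamatergic cells lay between SST and PVALB cells, at 37.8 ± 38.8 CPM for Sema3a and 25.5 ± 26.7 CPM for Sema3e over 5 libraries. Neighbours in that order overlapped and differed by less than the larger SD for both genes. Between classes that were not neighbours, all SST libraries lay above all NGFC libraries for Sema3a, from 13.1 against up to 4.715 CPM. For Sema3e these nearly met, at 9.44 against 9.43 CPM.

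Sema5a, a membrane-spanning semaphorin with thrombospondin repeats, was highest in oligodendrocyte precursors at 229.6 ± 84.2 CPM. It went on through oligodendrocytes at 132 ± 59.9, NGFC cells at 105.5 ± 43.0, glutamatergic cells at 90.8 ± 153, PVALB cells at 41.4 ± 18.4 and SST cells at 14.7 ± 10.6 CPM. Precursors stood above oligodendrocytes, and PVALB above SST cells, by more than the larger SD, though libraries overlapped at every step. All NGFC libraries, from 42.2 CPM, lay above all SST libraries, up to 27.9 CPM. Sema6d, a ligand of plexin A receptors, ran from 126 ± 64.0 CPM in astrocytes and 94.6 ± 52.4 CPM in precursors to 57.0 ± 28.4 CPM in SST, 39.0 ± 23.5 CPM in NGFC and 26.8 ± 19.0 CPM in PVALB cells. Each neighbour in that order overlapped the next, and the classes with several libraries differed from the next by less than the larger SD.

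Among the receptors, Plxna4, a signalling chain for Sema3a, averaged 155 ± 49.0 CPM in PVALB cells, 69.1 ± 31.8 CPM in NGFC cells and 52.3 ± 10.6 CPM in SST cells, with glutamatergic cells at 139.9 ± 106 CPM between the first of these and the rest. Each of the 4 classes overlapped the next and differed from it by less than the larger SD, and SST cells lay apart from microglia at 14.5 ± 16.9 CPM. Between classes that were not neighbours, all PVALB libraries, from 78.8 CPM, lay above all SST libraries, up to 65.8 CPM. Plxna2, another plexin A chain, averaged 99.1 ± 22.8 CPM in SST cells, 66.0 ± 15.9 CPM in PVALB cells and 41.4 ± 16.0 CPM in NGFC cells, against 1.11 ± 1.10 CPM in oligodendrocytes. SST and PVALB libraries overlapped, as did PVALB and NGFC libraries, whose means differed by more than the larger SD. All SST libraries, from 68.5 CPM, lay above all NGFC libraries, up to 56.6 CPM. Plxnd1, the receptor of Sema3e, was near 0 in the interneurons, with 0.482 ± 0.574 CPM in SST, 0.479 ± 0.651 CPM in PVALB and 0.156 ± 0.382 CPM in NGFC cells. Its level was 18.5 ± 19.8 CPM in the 5 libraries with enough glutamatergic cells and 53.1 CPM in the 1 library with enough endothelial cells.

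Nrp1, which binds class 3 semaphorins and vascular growth factor, was highest in endothelial cells at 504 CPM in 1 library. Microglia followed at 142 ± 134 CPM over 4 libraries, then astrocytes at 70.7 ± 34.5, glutamatergic cells at 60.9 ± 77.5, NGFC cells at 37.2 ± 24.7, PVALB cells at 12.8 ± 12.2 and SST cells at 10.4 ± 11.1 CPM. Precursors at 3.73 ± 3.02 and oligodendrocytes at 1.49 ± 0.732 CPM stood lowest. Nrp2, its relative with another preference among the ligands, averaged 108 ± 76.1 CPM in astrocytes, 61.8 ± 51.0 CPM in NGFC, 23.3 ± 18.9 CPM in SST, 11.8 ± 12.1 CPM in PVALB cells and 1.52 ± 1.31 CPM in oligodendrocytes, which alone lay apart from their neighbour in the order, the precursors at 10.7 ± 6.13 CPM. From microglia to oligodendrocytes, neighbouring classes for Nrp1 overlapped and differed by less than the larger SD. The large SD of both neuropilins in the interneurons went with region.

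**Figure D1:**
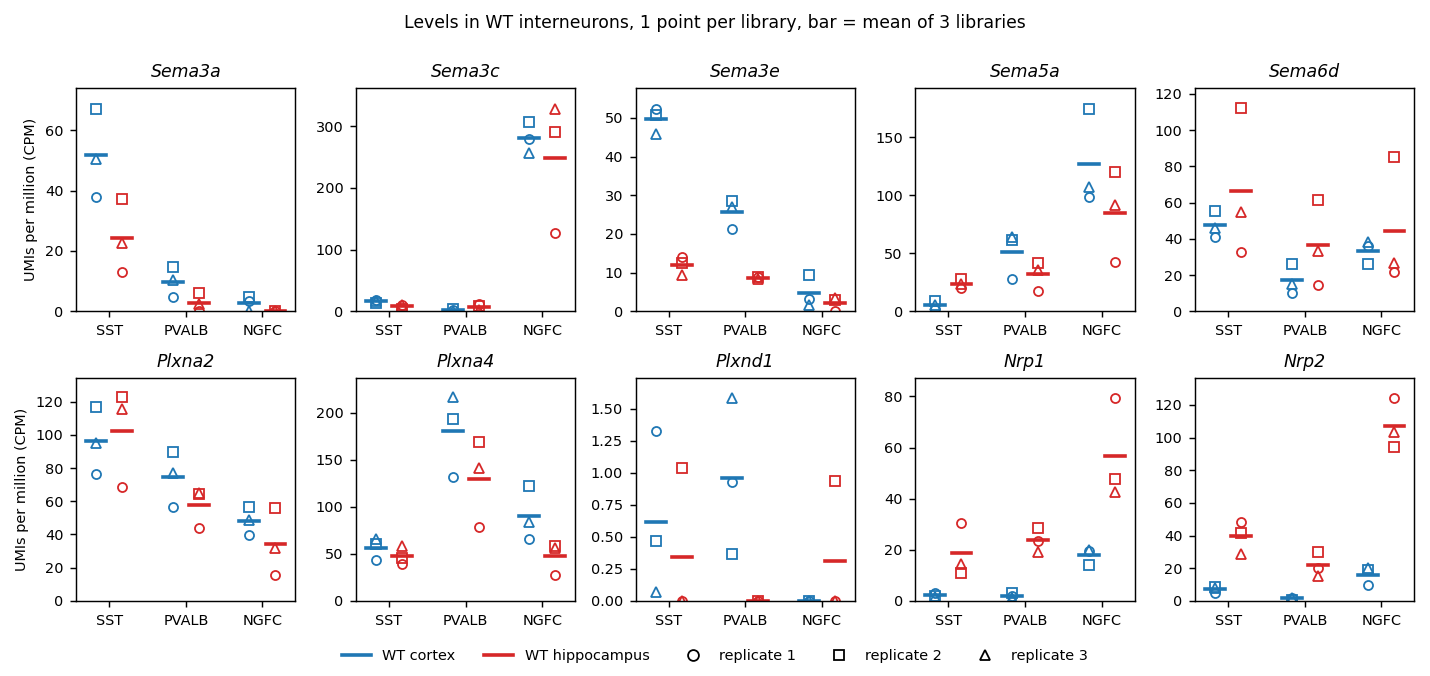
Levels of the 10 genes in WT SST, PVALB and NGFC cells, in CPM on the vertical axes, with blue for cortex and red for hippocampus. Each symbol is 1 library (circle replicate 1, square replicate 2, triangle replicate 3) and each bar the mean of 3 libraries. Nrp1 and Nrp2 are higher in all hippocampal than in all cortical libraries of each class, Sema3e is lower in the hippocampal SST and PVALB libraries, and Sema3c is highest in NGFC cells.

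Within the classes, clusters differed as well, here as counts pooled over the WT libraries of both regions with a 95% counting interval. The SST cluster led by Crh and Tac2 held Sema3e at 87.9 CPM (79.7 to 96.6), Sema3c at 61.8 CPM (55.0 to 69.2) and Sema3a at 60.8 CPM (54.0 to 68.1). In the SST cluster led by Cbln4 and Qrfpr, Sema3e was at 11.2 CPM (8.99 to 13.7) and Sema3c at 2.21 CPM (1.31 to 3.49). As means of libraries inside cortex, the Crh and Cbln4 clusters held Sema3e at 112.5 and 11.2 CPM and Sema3c at 74.2 and 3.09 CPM. Inside hippocampus these were 27.2 and 8.70 CPM for Sema3e and 38.95 and 1.01 CPM for Sema3c. Sema3e and Sema3c were thus spread unevenly among somatostatin cells. Sema3a was closer between these clusters, at means of 74.5 and 61.6 CPM in cortex and 27.0 and 24.6 CPM in hippocampus. Its libraries overlapped between the clusters in both regions. Sema3c was at 0.348 CPM (0.00881 to 1.94) in the cluster led by Chodl and Npy, from 1 UMI.

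Cells led by Th held Plxna4 at 153 CPM (141 to 166) and Plxna2 at 138 CPM (126.5 to 149.8). Plxna4 had its lowest SST value, 14.3 CPM (9.69 to 20.2), in the cluster led by Myh8 and Gpx3, whose WT cells were nearly all of replicate 1, of the other chemistry. The PVALB cells divided mainly into a larger cluster led by Tac1 and a smaller one led by Kcng4. The share of the smaller differed between regions, so they are compared inside each region, as means of 3 libraries. Nrp1 was at 0.712 CPM in the larger and 11.6 CPM in the smaller in cortex, and at 4.99 and 73.1 CPM in hippocampus, without overlap in either region. The larger held 7 UMIs of Nrp1 in each region, and the smaller 11 in cortex and 36 in hippocampus. Sema3a was at 11.4 CPM in cortex and 4.09 CPM in hippocampus in the larger and at 0 UMIs in both regions of the smaller. Sema5a was at 56.2 and 2.40 CPM in these clusters in cortex, without overlap, and at 37.8 and 15.7 CPM in hippocampus, where libraries overlapped. The 2 NGFC clusters, led by Lamp5 with Hapln1 and by Pde11a with Tnnt1, held Sema3c at 282 CPM (268 to 297) and 299.7 CPM (271 to 331), with intervals that overlapped. Most cells of the latter were of hippocampal replicate 2.

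**Figure D2:**
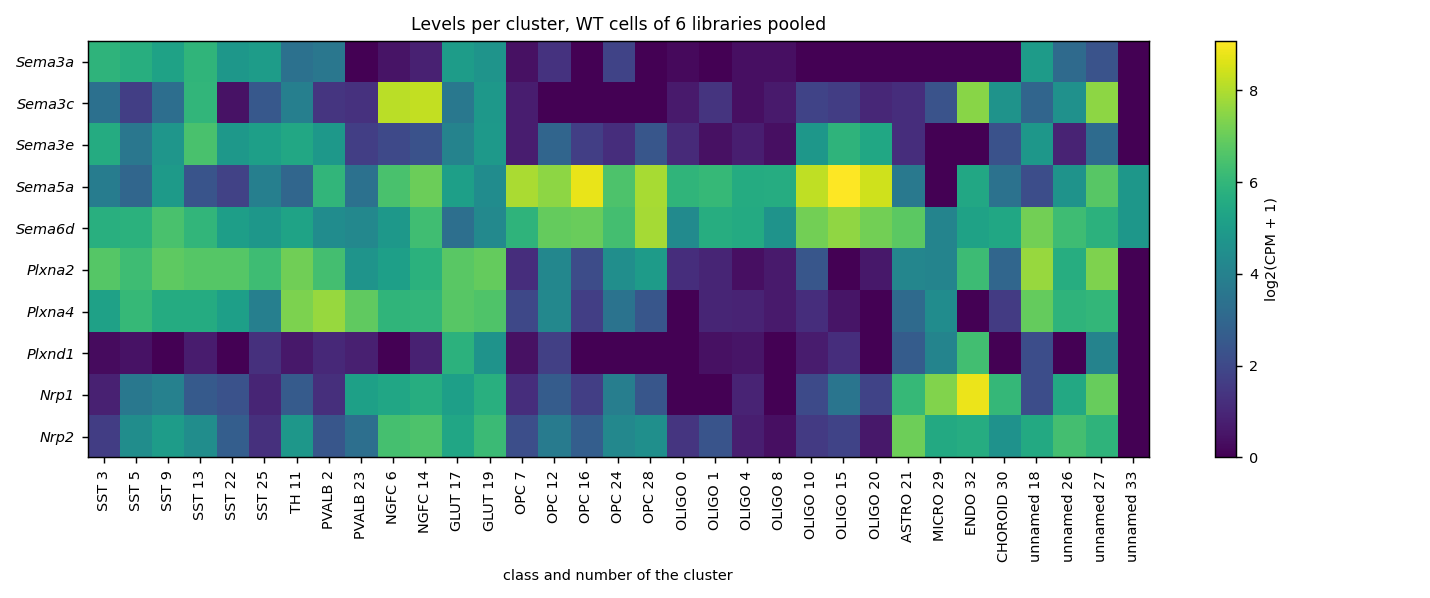
Levels of the 10 genes (vertical axis) in each cluster of at least 50 WT cells (horizontal axis, class and cluster number), as log2 of CPM plus 1 pooled over the 6 WT libraries. Sema3c is brightest in the NGFC clusters, the endothelial cluster and cluster 27 among the columns shown, Sema5a in the precursors and in oligodendrocyte clusters 10, 15 and 20, and Plxna2 and Plxna4 are low in the oligodendrocyte clusters.

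The co-receptors set the WT regions apart in all 3 interneuron classes. In SST cells, Nrp1 stood at 3.03, 2.02 and 1.43 CPM in cortex and 30.3, 10.9 and 14.6 CPM in hippocampus. Nrp2 stood at 4.92, 8.40 and 7.99 CPM in cortex and 48.1, 41.9 and 28.6 CPM in hippocampus. Every hippocampal library lay above every cortical one for both genes, and the hippocampal mean was 8.60 times the cortical mean for Nrp1 and 5.56 times for Nrp2. The edgeR fit gave Nrp1 a log2 change of 3.08 (SE 0.47, edgeR adjusted p 0.0443) and Nrp2 a log2 change of 2.40 (SE 0.32, edgeR adjusted p 0.0286), hippocampus against cortex, neither of which passed.

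With the replicate number as a block both passed, at a log2 change of 3.02 (edgeR adjusted p 1.63e-05) for Nrp1 and 2.35 (edgeR adjusted p 4.96e-05) for Nrp2. Across the alternatives tried, the edgeR and DESeq2 adjusted p ran from 1.46e-06 to 0.253 for Nrp1 and from 2.04e-08 to 0.181 for Nrp2. Both were higher in hippocampus in 3 of 3 same-numbered pairs of libraries, a pattern that was not counted over all genes.

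Among the secreted ligands, Sema3e had the opposite direction in SST cells, at 52.4, 50.9 and 45.9 CPM in cortex and 14.1, 12.4 and 9.44 CPM in hippocampus. Sema3a stood at 38.0, 67.1 and 50.3 CPM in cortex and 13.1, 37.2 and 22.7 CPM in hippocampus, and Sema3c at 18.7, 13.5 and 16.3 CPM in cortex and 10.98, 3.10 and 10.8 CPM in hippocampus. All cortical libraries lay above all hippocampal ones for the 3 genes, narrowly for Sema3a, whose lowest cortical and highest hippocampal library nearly met. The edgeR fit gave Sema3e a log2 change of -2.12 (SE 0.25, edgeR adjusted p 0.0234), Sema3a a log2 change of -1.13 (SE 0.39, edgeR adjusted p 0.402) and Sema3c a log2 change of -1.003 (SE 0.40, edgeR adjusted p 0.562). With the block, Sema3e passed at -2.13 (edgeR adjusted p 2.57e-05) and Sema3a at -1.20 (edgeR adjusted p 0.00293), while Sema3c did not at -1.04 (edgeR adjusted p 0.0445). Their adjusted p ran from 5.03e-09 to 0.128, 0.00293 to 0.899 and 0.0445 to 1 over the alternatives by edgeR and DESeq2.

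Sema5a, low in cortical SST cells at 2.27, 8.56 and 5.60 CPM, stood at 20.4, 27.9 and 23.5 CPM in hippocampal ones, again with no overlap. Its edgeR result was a log2 change of 2.06 (SE 0.42, edgeR adjusted p 0.103), and it passed with the block at 2.13 (edgeR adjusted p 0.000160), with an adjusted p from 0.000160 to 0.413 over the alternatives by edgeR and DESeq2. Sema6d at 41.0, 55.6 and 45.8 CPM in cortex and 32.9, 112 and 54.7 CPM in hippocampus overlapped. Plxna2 and Plxna4 overlapped between regions as well, with cortical libraries from 43.5 to 65.8 CPM and hippocampal ones from 39.7 to 58.0 CPM for Plxna4. Plxnd1 held at most 1.32 CPM in any WT library of the class and was under the low-count filter.

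Over all 11987 genes tested in SST cells, 6 passed between the WT regions (0.0501%), and 0 of the 9 semaphorin, plexin and neuropilin genes tested, by edgeR. At an unadjusted p under 0.05 the counts were 897 genes and 6 of the 9. DESeq2 passed 138 genes and 4 of the 9, namely Nrp1, Nrp2, Sema3e and Sema5a. With the block, edgeR passed 335 genes (2.79%) and 5 of the 9, with Nrp1, Nrp2 and Sema5a higher and Sema3a and Sema3e lower in hippocampus. The libraries of 6 of the 9 did not overlap between regions, as for 13.0% of all genes tested. The count of 6 genes was 0 without any 1 of the 3 cortical libraries or without hippocampal replicate 3. The median log2 change was 0.04 over the 9 genes and 0.03 over all genes.

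PVALB cells repeated the pattern of the neuropilins. Nrp1 stood at 1.86, 2.92 and 1.27 CPM in cortex (2, 8 and 8 UMIs) and 23.4, 28.5 and 19.2 CPM in hippocampus (8, 19 and 16 UMIs). Nrp2 stood at 1.86, 0.731 and 2.06 CPM in cortex (2, 2 and 13 UMIs) and 20.4, 29.95 and 15.6 CPM in hippocampus (7, 20 and 13 UMIs). No cortical library reached the lowest hippocampal one for either gene. The edgeR fit gave Nrp1 a log2 change of 3.62 (SE 0.45, edgeR adjusted p 0.0135) and Nrp2 a log2 change of 3.72 (SE 0.50, edgeR adjusted p 0.0172). With the block both passed, at 3.58 (edgeR adjusted p 9.26e-05) and 3.65 (edgeR adjusted p 0.000365), and their adjusted p ran from 1.27e-07 to 0.244 and from 1.25e-07 to 0.217 over the alternatives by edgeR and DESeq2.

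Sema3e in PVALB cells stood at 21.4, 28.5 and 26.9 CPM in cortex and 8.76, 8.99 and 8.39 CPM in hippocampus (3, 6 and 7 UMIs), without overlap, with a log2 change of -1.56 (SE 0.35, edgeR adjusted p 0.247). Sema5a, whose direction in SST cells was the reverse, stood at 27.9, 61.4 and 63.9 CPM in cortex and 17.5, 41.9 and 35.9 CPM in hippocampal PVALB cells, with overlap. Sema6d stood at 10.2, 25.9 and 15.0 CPM in cortex and 14.6, 61.4 and 33.5 CPM in hippocampus, also with overlap. Whether the change of Sema5a differed between SST and PVALB cells was not tested. Plxna4, highest in this class, stood at 132, 194 and 217 CPM in cortex and 78.8, 169 and 141 CPM in hippocampus, with overlap. In each same-numbered pair of libraries, Sema6d was higher in hippocampus while Sema5a and Plxna4 were lower. How many of all genes kept 1 direction in every pair was not counted, so this is a description only. With the block their log2 changes were 1.12, -0.68 and -0.48, and none passed (edgeR adjusted p 0.0579, 0.274 and 0.365). Plxna2 overlapped too, and Sema3a, Sema3c and Plxnd1 were under the low-count filter.

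Of 8767 genes tested in PVALB cells, 3 passed between the WT regions by edgeR (0.0342%), and 0 of the 7 semaphorin, plexin and neuropilin genes tested. The counts at an unadjusted p under 0.05 were 387 genes and 4 of the 7. DESeq2 passed 28 genes and 2 of the 7, Nrp1 and Nrp2, and the edgeR fit with the block passed 72 genes (0.821%) and the same 2 of the 7. Libraries did not overlap for 3 of the 7, Nrp1, Nrp2 and Sema3e, against 9.20% of all genes tested. The count of 3 genes was 0 without any 1 of the 6 libraries.

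NGFC cells held the neuropilins in both regions, and again more in the hippocampus. Nrp2 stood at 9.85, 18.9 and 19.9 CPM in cortex and 124, 94.5 and 103.5 CPM in hippocampus, and Nrp1 at 19.7, 14.2 and 19.9 CPM in cortex and 79.3, 47.7 and 42.7 CPM in hippocampus. No libraries overlapped between regions for either gene. The edgeR fit gave Nrp2 a log2 change of 2.70 (SE 0.37, edgeR adjusted p 0.0707) and Nrp1 a log2 change of 1.66 (SE 0.41, edgeR adjusted p 0.856). With the block, Nrp2 passed at 2.66 (edgeR adjusted p 0.00312) and Nrp1 did not at 1.57 (edgeR adjusted p 0.0783). The adjusted p of Nrp2 ran from 3.20e-06 to 0.782 and that of Nrp1 from 0.0783 to 1 over the alternatives by edgeR and DESeq2.

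Sema3c, the ligand highest among interneurons in NGFC cells, stood at 279, 306.5 and 257 CPM in cortex and 127, 290.1 and 328 CPM in hippocampus, with overlap. Plxna4 was the other gene without overlap, at 65.7, 123 and 84.1 CPM in cortex and 28.1, 58.0 and 56.3 CPM in hippocampus, with a log2 change of -0.88 (SE 0.37, edgeR adjusted p 0.9998). Sema5a at 98.5, 174.5 and 107 CPM in cortex and 42.2, 119.8 and 91.2 CPM in hippocampus overlapped, as did Sema6d and Plxna2. Each same-numbered pair had Sema5a lower in hippocampus, a pattern not counted over all genes, and Sema5a did not pass with the block (edgeR adjusted p 0.7348). By edgeR, 0 of 7870 genes tested (0%) and 0 of the 7 semaphorin, plexin and neuropilin genes passed, with 206 genes and 3 of the 7 at an unadjusted p under 0.05. DESeq2 passed 6 genes, with Nrp2 among them, and the edgeR fit with the block passed 10 genes (0.127%), with Nrp2 as 1 of the 7. Libraries of 3 of the 7 did not overlap between regions, against 6.71% of all genes tested.

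Counts of oligodendrocyte genes moved with region in these classes. The summed level of 5 markers (Mog, Mobp, Mag, Mbp and Opalin) in SST cells was 214, 269 and 224 CPM in WT cortex and 842, 934 and 569.7 CPM in WT hippocampus. In PVALB cells it was 89.2, 200.2 and 150.2 CPM in cortex and 499, 728 and 779 CPM in hippocampus. Hippocampal libraries lay above cortical ones in both classes, with Mbp the most abundant of the 5 in each of them and none of the 5 at 0. In NGFC cells the sums overlapped, at 571, 278 and 674 CPM in cortex and 640.5, 1377 and 333 CPM in hippocampus. Nrp1 and Nrp2 were at 1.49 and 1.52 CPM in oligodendrocytes themselves. Sema5a was at 132 CPM in oligodendrocytes, and the part of the marker counts in its SST result was not tested.

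Astrocyte and precursor markers were higher in hippocampal SST cells as well. The sum of 6 astrocyte markers (Aqp4, Slc1a3, Gja1, Aldoc, Slc1a2 and Gfap) was 56.2, 49.8 and 51.3 CPM in cortical and 76.8, 182 and 105 CPM in hippocampal SST cells. The sum of 6 precursor markers (Pdgfra, Cspg4, Gpr17, Bmp4, Neu4 and Enpp6) was 4.16, 4.51 and 9.08 CPM in cortical and 13.1, 44.5 and 22.1 CPM in hippocampal SST cells. Neither overlapped between regions. In PVALB cells both sums overlapped, and in NGFC cells the astrocyte sums overlapped while the precursor sums did not, at 6.57, 9.43 and 18.4 CPM in cortex and 21.7, 78.6 and 38.5 CPM in hippocampus. Astrocytes held Nrp1 and Nrp2 at 70.7 and 108 CPM, and precursors held Sema5a at 229.6 CPM. The part of these cell types in the results of Nrp1, Nrp2 and Sema5a was not tested.

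Pooled over WT libraries, median UMIs per cell were 7228 in cortical and 3611 in hippocampal SST cells, 6858 and 2752 in PVALB cells, and 4714 and 3024 in NGFC cells. The share of a class in each cluster varied between libraries. The SST cluster led by Myh4 and Myh13 held 10.5%, 30.8% and 42.9% of cortical and 8.53%, 6.77% and 30.1% of hippocampal SST cells, and the cluster led by Gm27675 and Gm1604A held 2.54%, 17.0% and 8.28% of cortical and 3.41%, 67.5% and 11.4% of hippocampal ones. The NGFC cluster led by Pde11a held 2.04%, 29.6% and 10.7% of cortical and 3.37%, 99.6% and 11.2% of hippocampal NGFC cells. The regions overlapped in all 3 clusters, and the high shares of the Gm27675 and Pde11a clusters were those of hippocampal replicate 2, the shallowest per cell. Other clusters did separate the regions. The SST cluster led by Chodl held 5.25%, 11.6% and 3.59% of cortical and 0.341%, 2.79% and 0.284% of hippocampal SST cells. The PVALB cluster led by Kcng4 held 10.9%, 12.2% and 4.58% of cortical and 28.9%, 31.1% and 12.5% of hippocampal PVALB cells, and the one led by Crabp1 held 7.25%, 1.82% and 2.66% against 0%, 0.778% and 1.14%, all without overlap. These differences were not tested.

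The neuropilin difference was present inside clusters. There the share of all genes tested in the class whose libraries did not overlap between the WT regions, in either direction, ran from 8.42% in the Kcng4 cluster to 32.3% in the Pde11a cluster, which had 2 libraries in each region. In the SST cluster led by Cbln4 and Qrfpr, Nrp1 averaged 36.2 ± 30.6 against 0.774 ± 1.34 CPM and Nrp2 63.1 ± 11.7 against 4.16 ± 3.52 CPM (mean ± SD over 3 WT hippocampal and 3 WT cortical libraries). In the Gm27675 cluster Nrp1 averaged 42.1 ± 32.5 against 3.80 ± 6.58 CPM and Nrp2 56.7 ± 34.3 against 4.67 ± 5.98 CPM. The libraries of the regions did not overlap for either gene in either cluster, though the 11.4 CPM of the highest cortical library came from few UMIs (3 UMIs of Nrp1 in all cortical libraries together). The class name of the Gm27675 cluster depended on the resolution. At 1.4 the cluster led by Gm27675 took no name for its few UMIs per cell, as did one at 0.6 with Gm27675 among its leading genes.

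In the larger PVALB cluster, led by Tac1, Nrp2 averaged 21.3 ± 14.0 against 1.78 ± 0.776 CPM and Nrp1 4.99 ± 0.700 against 0.712 ± 0.617 CPM over the same 3 and 3 libraries. The Nrp1 values there rest on 7 UMIs in all libraries of each region together. In the smaller one, led by Kcng4, Nrp1 averaged 73.1 ± 13.6 against 11.6 ± 6.94 CPM and Nrp2 26.5 ± 7.98 CPM in hippocampus against 0 UMIs in cortex. Neither gene overlapped between regions in these clusters. In the NGFC cluster led by Lamp5, Nrp2 averaged 114 ± 15.6 against 14.5 ± 4.22 CPM over 2 hippocampal and 3 cortical libraries. Over the 9 interneuron clusters that could be compared, Nrp1 and Nrp2 each had the higher mean in hippocampus in 9, with no overlap in 7. The cluster led by Crh overlapped for both genes, the Myh4 cluster for Nrp1 and the Pde11a cluster for Nrp2. No test was run inside clusters.

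Sema3e had the lower mean in hippocampus in 9 of the 9 clusters, without overlap in 5. It averaged 27.2 ± 14.3 against 112.5 ± 9.47 CPM in the Crh cluster (2 and 3 libraries) and 13.5 ± 14.5 against 59.9 ± 8.28 CPM in the Myh4 cluster (3 and 3 libraries), hippocampus first. In the Cbln4 cluster it was at 8.70 ± 5.11 against 11.2 ± 7.14 CPM and overlapped. Sema3a was lower in hippocampus in 8 clusters, with no overlap in 3, and at 0 in both regions of the Kcng4 cluster. Plxna4 was lower in hippocampus without overlap in 5 of the 9 clusters. They were 3 SST clusters, among them the Cbln4 cluster at 47.5 ± 12.9 against 72.3 ± 8.98 CPM, and both NGFC clusters, a class that separated as a whole. Neither of the PVALB clusters compared did so, and the mean was higher in hippocampus in the Th cluster at 146 ± 46.2 against 141.5 ± 23.7 CPM and in the Kcng4 cluster at 128 ± 59.2 against 106 ± 8.35 CPM.

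Sema5a, which passed with the block in SST cells as a whole, had the higher mean in hippocampus in 5 of the 9 clusters, without overlap in 2, and the lower mean in 4, without overlap in 1. Of the SST clusters compared, the Gm27675 cluster alone had the lower mean. The others with a lower mean were the Tac1 cluster of PVALB cells and both NGFC clusters. It was higher without overlap in the Cbln4 cluster at 14.8 ± 6.87 against 3.49 ± 1.78 CPM and in the Crh cluster at 6.58 ± 1.24 against 3.46 ± 1.49 CPM, hippocampus first. In the Gm27675 cluster it was at 20.4 ± 17.7 against 23.4 ± 24.8 CPM, so that the mean was lower in hippocampus there, with overlap. The cluster without overlap in that direction was the NGFC cluster led by Lamp5, at 64.9 ± 30.4 against 126 ± 45.7 CPM.

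The same UMIs can be counted by cell, as the share of WT cells with at least 1 UMI of a gene and its 95% Wilson interval. The share that UMIs from other cells would give was not measured, so the shares are not read as the share of cells that express a gene. In SST cells, Nrp1 was found in 1.30% (0.970 to 1.74%) of cortical and 6.87% (5.66 to 8.31%) of hippocampal cells. The hippocampal cells were the shallower. Nrp2 was found in 4.73% (4.06 to 5.50%) and 14.1% (12.4 to 16.0%), and Sema3e in 24.2% (22.8 to 25.7%) and 4.79% (3.79 to 6.04%). Cells of at least 1000 UMIs were also thinned to 1000, which left out 111 of 3383 cortical and 139 of 1398 hippocampal SST cells. The shares, cortex then hippocampus, were 0.0917% and 1.83% for Nrp1. They were 0.947% and 3.89% for Nrp2, and 4.71% and 1.27% for Sema3e. Cells of a library are not replicates, and no test was run on these shares.

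In NGFC cells, Nrp2 was found in 7.32% (4.84 to 10.9%) of cortical and 30.7% (28.0 to 33.6%) of hippocampal cells, thinned 1.18% and 9.43% (33 of 287 and 112 of 1045 cells left out). Sema3c was in 52.0% (49.3 to 54.6%) of all WT NGFC cells (thinned 22.0%) and in 0.0734% (0.0201 to 0.267%) of precursors, whose median was 1860 UMIs per cell. Plxna4 was in 59.6% (57.3 to 61.9%) of PVALB cells (thinned 17.2%) and 0.221% (0.129 to 0.377%) of oligodendrocytes (thinned 0.0572%).

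The comparison of null with WT asked whether loss of the NMDA receptor from these cells went with other levels of the guidance genes. Nrp1 in hippocampal SST cells stood at 30.3, 10.9 and 14.6 CPM in WT and 22.1 and 14.7 CPM in null, and Nrp2 at 48.1, 41.9 and 28.6 CPM in WT and 29.2 and 26.1 CPM in null. The Nrp1 ranges overlapped, and the Nrp2 ranges as well. In cortical SST cells Sema3e stood at 52.4, 50.9 and 45.9 CPM in WT and 28.1 and 34.4 CPM in null, with both null libraries lower. The edgeR fit gave a log2 change of -0.62 (SE 0.27, edgeR adjusted p 1) for Sema3e, null against WT, at an unadjusted p of 0.0418. After these values had been seen, the genotypes were also set side by side inside clusters. How many of all genes separate between genotypes inside clusters was not counted, so absence of overlap there is a description only. In cortical SST cells as a whole, 16.3% of all genes did so. Sema3e was lower in null cortex without overlap in the Crh cluster, at 119, 117 and 102 CPM in WT and 80.2 and 62.3 CPM in null, and in the Gm27675 cluster, at 49.1, 54.6 and 34.2 CPM in WT and 0 and 7.70 CPM in null (3, 21 and 9 UMIs against 0 and 1 UMIs). It overlapped in the Myh4 cluster, at 67.9, 60.4 and 51.3 CPM in WT and 39.9 and 62.4 CPM in null, and in the Cbln4 cluster, at 4.32, 18.6 and 10.8 CPM in WT and 7.18 and 20.7 CPM in null. Only null replicate 2 had enough cells of the Th cluster, at 39.0, 82.9 and 45.0 CPM in WT and 9.96 CPM in null, and of the Chodl cluster, at 23.0, 33.8 and 22.7 CPM in WT and 28.5 CPM in null. Pooled over libraries, the Chodl cluster held 6.59% of WT and 18.0% of null cortical SST cells. The Th cluster held 12.0% and 21.6%, and the Myh4 cluster 32.8% and 19.95%. Shares of single libraries overlapped between genotypes for each of these clusters, and their part in the Sema3e result was not tested. Markers of other cell types moved in the same cells. The astrocyte sum was 56.2, 49.8 and 51.3 CPM in WT and 103.5 and 99.8 CPM in null cortical SST cells, with Aldoc the most abundant in null, and the oligodendrocyte sum 214, 269 and 224 CPM in WT and 194 and 187 CPM in null, neither with overlap. Their part in the Sema3e result was not tested.

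Sema3e in PVALB cells was also lower in all null libraries of each region, at 16.8 and 15.7 CPM in null cortex against 21.4, 28.5 and 26.9 CPM in WT, and 2.35 and 6.54 CPM in null hippocampus (1 and 27 UMIs) against 8.76, 8.99 and 8.39 CPM in WT (3, 6 and 7 UMIs). The hippocampal levels, and null cortex replicate 1, rest on few UMIs. Neither result passed, with a log2 change of -0.70 (SE 0.37, edgeR adjusted p 0.9999) in cortex and a log2 change of -0.63 (SE 0.48, edgeR adjusted p 0.9995) in hippocampus. The PVALB libraries differed in their clusters too, with 81.9%, 86.0% and 92.8% of WT and 69.7% and 50.6% of null cortical cells in the Tac1 cluster. The Crabp1 cluster held 7.25%, 1.82% and 2.66% of WT and 24.2% and 21.1% of null cortical cells, and the Kcng4 cluster 10.9%, 12.2% and 4.58% against 6.06% and 28.3%, so that the former alone was larger in both null libraries. In WT cortex Sema3e was at 29.3 ± 4.09 CPM in the Tac1 cluster, at 2.55 ± 2.42 CPM in the Kcng4 cluster and at 0 UMIs in the 38 cells of the Crabp1 cluster, with an upper limit of 12.1 CPM. Inside the Tac1 cluster the cortical genotypes overlapped, at 25.3, 33.4 and 29.2 CPM in WT and 22.9 and 33.3 CPM in null (5 and 51 UMIs in null). In the hippocampus they did not, at 13.5, 14.1 and 10.1 CPM in WT and 3.24 and 7.78 CPM in null (1 and 20 UMIs in null). How many of all genes separate between genotypes inside this cluster was not counted. In hippocampal PVALB cells as a whole, 14.3% of all genes did so. No test was run on these values.

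Nrp1 in NGFC cells of the hippocampus stood at 79.3, 47.7 and 42.7 CPM in WT and 36.8 and 29.2 CPM in null, and Nrp2 at 124, 94.5 and 103.5 CPM in WT and 86.3 and 87.3 CPM in null. Both null libraries lay lower for both genes, with a log2 change of -0.76 (SE 0.38, edgeR adjusted p 0.960) for Nrp1 at an unadjusted p of 0.0688, and a log2 change of -0.28 (SE 0.32, edgeR adjusted p 0.960) for Nrp2. The hippocampal libraries differed in their clusters, since the Pde11a cluster held 3.37%, 99.6% and 11.2% of WT and 3.13% and 5.17% of null NGFC cells, the high share being that of WT replicate 2. In the Lamp5 cluster alone, where WT replicates 1 and 3 had enough cells, Nrp1 stood at 81.5 and 40.0 CPM in WT and 38.2 and 29.0 CPM in null, and Nrp2 at 125 and 103 CPM in WT and 86.7 and 87.7 CPM in null. Neither overlapped, though Nrp1 nearly did, at 40.0 against 38.2 CPM. How many of all genes separate between genotypes in this cluster was not counted, so this is a description only. In hippocampal NGFC cells as a whole, with 3 WT libraries, 19.2% of all genes did so. No test was run on these values.

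No semaphorin, plexin or neuropilin gene passed between genotypes, in either region or any class, by edgeR (0 of 9 in SST, 0 of 8 in PVALB and 0 of 7 in NGFC cells). In SST cells 0 of 12946 genes (0%) passed in cortex and 0 in hippocampus by edgeR, with 291 and 492 genes at an unadjusted p under 0.05, and DESeq2 passed 2 and 2. Of the 9, Sema3e in cortex alone was at an unadjusted p under 0.05. In PVALB cells 2 of 9642 genes (0.0207%) passed in cortex and 0 in hippocampus by edgeR, with 351 and 338 at an unadjusted p under 0.05, and DESeq2 passed 16 and 1. Of the 8, 0 in cortex and 1 in hippocampus, Sema3a, were at an unadjusted p under 0.05. Sema3a was higher in null hippocampus, at a mean of 11.06 against 2.795 CPM in WT (6 UMIs in WT), with overlap. Its log2 change was 2.04 (SE 0.78, edgeR unadjusted p 0.02045, adjusted p 0.9995). The PVALB cortex count of 2 was 4 with the block and 9 without WT hippocampus replicate 2. It was 1 without WT cortex replicate 1 or WT hippocampus replicate 3, and 0 without WT cortex replicate 2 or 3 or either null cortex library.

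In NGFC cells 0 of 9687 genes passed in cortex and 0 in hippocampus by edgeR, with 143 and 324 at an unadjusted p under 0.05, 0 and 0 of the 7, and DESeq2 passed 0 and 1. The cortical fit had 1 null library of this class. DESeq2 passed 0 of the semaphorin, plexin and neuropilin genes between genotypes in all 3 classes. Libraries did not overlap between genotypes for 3 of the 9 in cortical SST cells (Sema3c, Sema3e and Sema6d, lower in null), against 16.3% of all genes, and for 1 of the 9 in the hippocampus (Sema5a, lower), against 17.8%. They did not overlap in PVALB cells for 1 of 8 in cortex, against 20.0%, and 1 of 8 in hippocampus, against 14.3%, Sema3e in both. In NGFC cells the counts were 5 of 7 in cortex, against 40.5%, and 2 of 7 in hippocampus, Nrp1 and Nrp2, against 19.2%. Both of the latter were lower in null. In cortex, with 1 null library, Nrp2 was higher in null, at 27.2 CPM against a WT mean of 16.2 CPM. Nrp1, Plxna2, Plxna4 and Sema6d were lower there.

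Marker sums of other cell types differed between genotypes in the hippocampus and in NGFC cells as well. In hippocampal SST cells, where Sema5a was lower in null, the precursor sum was 13.1, 44.5 and 22.1 CPM in WT and 5.52 and 7.92 CPM in null. In hippocampal PVALB cells the oligodendrocyte sum was 499, 728 and 779 CPM in WT and 423 and 252 CPM in null, and in hippocampal NGFC cells the precursor sum was 21.7, 78.6 and 38.5 CPM in WT and 0 and 9.80 CPM in null. None of these overlapped. In the 1 null cortex library of NGFC cells, the precursor sum of 1.82 CPM and the astrocyte sum of 51.7 CPM lay below those of WT cortex. The part of these cell types in the genotype values was not tested.

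Between the regions of null mice the neuropilins had the WT direction. SST cells held Nrp1 at 1.13 and 2.01 CPM in null cortex and 22.1 and 14.7 CPM in null hippocampus, and Nrp2 at 3.38 and 13.7 CPM in cortex and 29.2 and 26.1 CPM in hippocampus. PVALB cells held Nrp1 at 0 and 4.31 CPM in null cortex and 14.1 and 30.3 CPM in null hippocampus, and Nrp2 at 3.36 and 1.85 CPM in cortex and 18.8 and 15.5 CPM in hippocampus. The null cortex values of PVALB cells rest on few UMIs. Both hippocampal libraries lay above both cortical ones in each of the 4 cases, a separation that 3835 of 12946 genes tested showed in SST and 2468 of 9642 in PVALB cells, in either direction. In SST cells Nrp1 had a log2 change of 3.19 (SE 0.62, edgeR adjusted p 0.1301), Nrp2 a log2 change of 1.34 (SE 0.46, edgeR adjusted p 0.671) and Sema3e a log2 change of -1.77 (SE 0.32, edgeR adjusted p 0.0890). In PVALB cells Nrp1 had a log2 change of 2.71 (SE 0.61, edgeR adjusted p 0.274) and Nrp2 a log2 change of 2.98 (SE 0.69, edgeR adjusted p 0.304). Glial markers moved with region in null cells too, without overlap for any of the 3 sums in SST or PVALB cells. In SST cells the oligodendrocyte sum was 194 and 187 CPM in null cortex and 1125 and 457 CPM in null hippocampus, the astrocyte sum 103.5 and 99.8 against 161 and 134 CPM, and the precursor sum 2.25 and 4.45 against 5.52 and 7.92 CPM. In PVALB cells the oligodendrocyte sum was 53.8 and 181 against 423 and 252 CPM, the astrocyte sum 43.7 and 57.0 against 70.5 and 79.6 CPM, and the precursor sum 3.36 and 13.6 against 21.2 and 15.3 CPM. Their part in these results was not tested.

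Between the regions of null mice edgeR passed 3 of 12946 genes for SST (0.0232%), 1 of 9642 for PVALB (0.0104%) and 0 of 9687 for NGFC cells, with 0 of 9, 0 of 8 and 0 of 7 of the semaphorin, plexin and neuropilin genes. At an unadjusted p under 0.05 there were 575, 201 and 124 genes and 5 of 9, 3 of 8 and 2 of 7. DESeq2 passed 36, 14 and 0 genes, with Nrp1 and Sema3e among those of SST cells. The block gave 4 genes in PVALB and 1 in NGFC cells. The SST count was 6 without WT hippocampus replicate 2, 5 without WT cortex replicate 1, 1 without replicate 1 of null cortex or of null hippocampus, and 0 without replicate 2 of either. The PVALB count was 2 without WT hippocampus replicate 2 and 0 without replicate 2 of null cortex or of null hippocampus.

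A test of whether the region change differed between genotypes passed 0 genes in SST cells, 0 in PVALB cells and 0 in NGFC cells by edgeR, of the same 12946, 9642 and 9687 genes. At an unadjusted p under 0.05 there were 64, 119 and 40 genes by edgeR and 54, 72 and 30 by DESeq2, which passed 0. Of the semaphorin, plexin and neuropilin genes, 1 of the 8 of PVALB cells, Sema3a, was among them (edgeR unadjusted p 0.0466, adjusted p 0.9999), with 0 of the 9 of SST and 0 of the 7 of NGFC cells. For Nrp1 in SST cells the difference of the log2 changes was 0.11 (SE 0.75, edgeR adjusted p 0.9999) and for Nrp2 -1.05 (SE 0.58, edgeR adjusted p 0.9999).

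**Figure D3:**
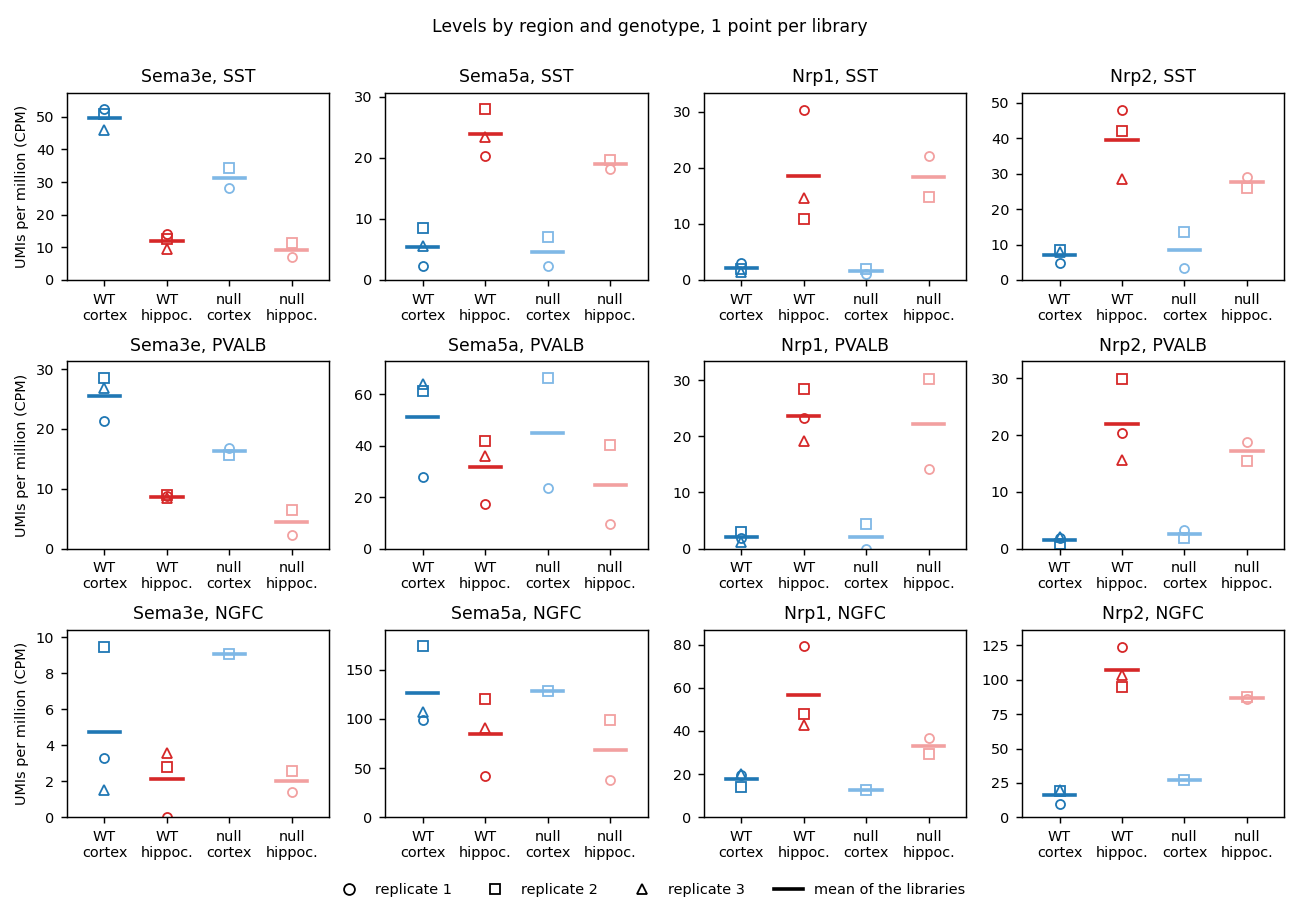
Levels of Sema3e, Sema5a, Nrp1 and Nrp2 in SST, PVALB and NGFC cells, in CPM on the vertical axes, for WT cortex (blue), WT hippocampus (red), null cortex (light blue) and null hippocampus (light red). Each symbol is 1 library (circle replicate 1, square replicate 2, triangle replicate 3) and each bar the mean of the libraries. Nrp1 and Nrp2 are higher in every hippocampal library than in every cortical library of each class and genotype, and Sema3e is lower in both null cortex libraries than in WT cortex in SST and PVALB cells.

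The whole family of semaphorins, plexins and neuropilins made a list of 31 genes, the 10 genes included, of which 27 were tested between WT regions in SST, 15 in PVALB and 13 in NGFC cells. By edgeR 0, 0 and 0 of them passed, with 10, 4 and 3 at an unadjusted p under 0.05, against 897 of 11987, 387 of 8767 and 206 of 7870 of all genes tested. DESeq2 passed 5, 2 and 1, against 1.15%, 0.319% and 0.0762% of all genes, and the edgeR fit with the block passed 6, 2 and 1, against 2.79%, 0.821% and 0.127%. These counts were nearly all of the 10 genes. Beyond them the only one was Plxnb3, a receptor of the plexin B kind, which DESeq2 and the block passed in SST cells. Its log2 change was 2.78 (SE 0.48, edgeR adjusted p 0.0655), and 2.81 (SE 0.48, edgeR adjusted p 0.00180) with the block, hippocampus against cortex. Plxnb3 averaged 2.74 ± 2.60 CPM in WT SST cells, 91.6 ± 34.4 CPM in oligodendrocytes and 118 ± 18.1 CPM in their precursors (mean ± SD over 6 libraries). The part of oligodendrocyte counts in its SST result was not tested.

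Partners of these receptors made another list of 31 genes, such as co-receptors and effectors inside the cell, with 24 tested in SST, 23 in PVALB and 23 in NGFC cells. Between WT regions 0, 0 and 0 passed by edgeR, with 2, 1 and 1 at an unadjusted p under 0.05 (of all genes tested, 897 of 11987, 387 of 8767 and 206 of 7870), and DESeq2 passed 0. With the block 1 of the 24 passed in SST cells, as 2.79% of all genes did, so the count says nothing of the list. It was Mical2, an enzyme that oxidises actin in the plexin pathway. Its log2 change was -1.37 (SE 0.38, edgeR adjusted p 0.253), and -1.43 (SE 0.22, edgeR adjusted p 0.000628) with the block, so it was lower in hippocampus. Between genotypes, between regions of null mice and in the test of the difference of region changes, 0 genes of the partner list passed by edgeR or DESeq2. Of the family list, DESeq2 passed 2 between regions of null SST cells, Nrp1 and Sema3e, and 0 elsewhere.

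Across the 33 clusters with at least 50 WT cells, the log2 level of each gene was correlated with those of 13106 genes, as a description without a test. Nrp1 and Nrp2 followed each other (Pearson r 0.815), and Nrp2 was the gene most like Nrp1 of all compared. The other genes most like them were Nedd9 (0.803) and Ier5 (0.787) for Nrp1, and Magi3 (0.823) and Pitpnm2 (0.803) for Nrp2. The pair Plxna2 and Plxna4 reached 0.844, and Sema3a and Plxna2 reached 0.744. The genes most like Plxna2 were Spred2 (0.939), Syt7 (0.938) and Hivep2 (0.930), those most like Plxna4 were Kcnma1 (0.962) and Slc2a3 (0.956), and those most like Plxnd1 were Cd34 (0.840), Stard8 (0.778) and Usp43 (0.777).

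For the ligands, the most similar genes across clusters were Camk1g (0.941), Fibcd1 (0.940) and Doc2a (0.931) for Sema3a, Rasd1 (0.843), Npy1r (0.778) and Rassf3 (0.758) for Sema3c and Cadm2 (0.730), Lrrc73 (0.725) and Actr1b (0.720) for Sema3e. They were Zfp664 (0.824), Gnb4 (0.822) and Pank3 (0.811) for Sema5a and Luzp2 (0.779), Pcm1 (0.764) and Bcan (0.748) for Sema6d. Npy1r, the receptor of neuropeptide Y that came after Rasd1 for Sema3c, and the potassium channel Kcnma1 for Plxna4 are neuronal genes, and Cd34, first for Plxnd1, is a gene of vessels and blood cells.

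In the GENCODE annotation of mouse build GRCm38, 3 secreted ligands lie on chromosome 5: Sema3a (ENSMUSG00000028883.13) at chr5:13125414-13602565 (+), Sema3e (ENSMUSG00000063531.6) at chr5:14025276-14256689 (+) and Sema3c (ENSMUSG00000028780.9) at chr5:17574281-17730268 (+). The others are Sema5a (ENSMUSG00000022231.9) at chr15:32244810-32696341 (+) and Sema6d (ENSMUSG00000027200.13) at chr2:124089969-124667770 (+). The plexins are Plxna2 (ENSMUSG00000026640.8) at chr1:194618218-194816869 (+), Plxna4 (ENSMUSG00000029765.11) at chr6:32144268-32588192 (-) and Plxnd1 (ENSMUSG00000030123.11) at chr6:115954811-115995005 (-), and the neuropilins Nrp1 (ENSMUSG00000025810.8) at chr8:128358604-128503363 (+) and Nrp2 (ENSMUSG00000025969.11) at chr1:62703285-62818695 (+). Genes on the opposite strand overlap Sema3e (Gm4128), Sema6d (4930517E11Rik and 4930583P06Rik), Plxna2 (Gm19777), Plxna4 (Plxna4os1, Plxna4os2 and Plxna4os3) and Nrp2 (Gm29083 and Gm4208). On their own strand Plxna2 holds 4 shorter annotated genes, Nrp2 holds Gm37121 and Nrp1 holds Mir1903. None overlaps Sema3a, Sema3c, Sema5a or Plxnd1.

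The promoters of Nrp1 and Nrp2 are shown since these were the genes higher in all hippocampal libraries of the 3 interneuron classes. Promoters, 250 bases before to 50 after the start of a gene, were in RefSeq (GRCm38.p6) for 9 of the 10 genes, all but Plxna4. Capitals mark GGGCGG, a core of GC boxes, and AGGTCA, a core site of nuclear receptors that COUP-TF proteins bind, both searched on either strand (CCGCCC and TGACCT on the reverse). Nrp1 at chr8:128358823-128359122 (+) has 1 GGGCGG and 1 AGGTCA, with 64.0% GC. Nrp2 at chr1:62703067-62703366 (+) has 5 GGGCGG, 2 of which overlap on the reverse strand, and 0 AGGTCA, with 70.7% GC. Of 32851 promoters, 35.66% hold GGGCGG and 16.26% hold AGGTCA.
Nrp1: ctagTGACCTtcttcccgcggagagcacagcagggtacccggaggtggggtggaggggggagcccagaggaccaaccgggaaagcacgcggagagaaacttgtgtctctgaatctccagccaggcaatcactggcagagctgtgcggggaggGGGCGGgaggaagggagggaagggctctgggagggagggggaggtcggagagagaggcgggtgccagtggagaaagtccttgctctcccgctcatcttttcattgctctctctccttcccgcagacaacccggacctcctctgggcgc
Nrp2: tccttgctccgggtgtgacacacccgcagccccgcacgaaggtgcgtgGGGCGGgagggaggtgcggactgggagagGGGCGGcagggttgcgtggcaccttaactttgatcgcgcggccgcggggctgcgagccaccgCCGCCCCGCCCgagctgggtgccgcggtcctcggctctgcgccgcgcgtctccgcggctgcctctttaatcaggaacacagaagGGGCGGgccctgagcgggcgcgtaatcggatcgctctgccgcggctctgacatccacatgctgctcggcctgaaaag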

How the data were processed

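Single-cell RNA was measured in 10 libraries of cells sorted by the Tomato reporter. Per the labels and file headers, the authors aligned reads to mm10 with Cell Ranger 2.1.1 (the matrix header names 3.0.2) and deposited 4 matrices of filtered UMI counts, 1 per region and genotype. Cells were assigned to replicates by the barcode suffix, in the order of the cell numbers that the authors state. Computed here: cells with 200 to 6000 genes and at most 30% mitochondrial UMIs (37 genes) were kept, 26201 of 26987. Seurat 5.3.0 (R 4.3.3) integrated the 4 matrices on 2000 variable features, 12 semaphorin, plexin and neuropilin genes left out of them, and clustered on 25 dimensions at resolution 1.0 into 34 clusters. A cluster took a class name where at least 3 markers of that class reached 20 CPM, unless it had few UMIs per cell and none of these markers among its leading genes, or markers of cholinergic cells beside those of interneurons. Scrublet in scanpy 1.11.5 (Python 3.11.15) marked 170 cells as doublets (0.649%), which were kept.

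Counts were summed per library and class where at least 10 cells were present. This left out NGFC cells of null cortex replicate 1, which numbered 3. edgeR 4.0.16 tested the sums with TMM factors, its low-count filter and quasi-likelihood F tests, with p-values adjusted over all genes tested by Benjamini-Hochberg. DESeq2 1.42.0 was the alternative test. The WT regions were fitted with the 6 WT libraries and the other comparisons with all 10. A replicate number could mark a shared preparation. Same-numbered WT libraries deviated together from their group means (Pearson r 0.684, 0.626 and 0.393 in SST, 0.524, 0.572 and 0.322 in PVALB, and 0.485, 0.430 and 0.183 in NGFC cells). The number also went with chemistry and with depth per cell, so a shared preparation could not be told apart from these. Fits with the number as a block are given where they change a call. The tests were tested on simulated data, and nothing is concluded from that here.

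Other alternatives were an adjusted p under 0.05, library size alone, no low-count filter, only the 2 groups compared, sums of at least 20 cells, each library left out, resolutions 0.6 and 1.4, no integration, all genes kept among the clustering features, doublets removed, a stricter cell filter (a minimum of 1000 genes and a mitochondrial share of 10% or less), and SST cells without the Th cluster. Intervals and the floor of 3 counts, the 95% limit where a count is 0, cover counting error only.

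The genes named are the 10, Grin1, any gene of the family and partner lists that passed with or without the block, and up to 3 genes most like each of the 10 in log2 of CPM plus 1, among genes of at least 20 CPM in some cluster. Named cluster markers are the leading genes of a cluster. The 10 genes and the lists were chosen with earlier results of these data known. The strand on which reads were counted is not stated, so reads of genes on the opposite strand could not be told apart. Reporter transcripts were not used here.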

Additional observations from a re-analysis of the deposited data

Results flagged for a closer look

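In PVALB cells, 3 of the 8 genes tested had changes of opposite direction in every same-numbered pair of libraries, either of region between genotypes or of genotype between regions. Of all 9642 genes tested in the class 10.3% did so. In SST cells it was 0 of 9, against 8.77%. Nrp2 was higher in null than in WT cortex and lower in null than in WT hippocampus in both replicates, a difference of log2 changes of -0.7416. That opposition was not tested pair by pair, and the edgeR test of the difference gave an adjusted p of 0.9999. Nrp2 in cortical PVALB cells stood at 3.36 and 1.85 CPM in the null libraries, on few UMIs, so its direction there rests on small counts.

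Sema3a was the only one of the 10 with an unadjusted edgeR p under 0.05 for the difference of region changes between genotypes, at a log2 value of 2.1888 (unadjusted p 0.0466, adjusted p 0.9999). The same value belongs to opposite region changes in WT and null, and to opposite genotype changes in cortex and hippocampus, in every same-numbered pair, neither tested by pair. Sema6d was higher in hippocampus than in cortex in WT replicates 1 and 2 and lower in null replicates 1 and 2, a difference of -1.2100, also not tested by pair. The null means were close, at 19.2 CPM in hippocampus and 20.1 CPM in cortex. With 33 PVALB cells in replicate 1 of each null region, counting error and biology could not be told apart.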

How the results depend on the processing

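In the comparison of WT regions, the number of the 10 genes passing was 0 in each class. An adjusted p under 0.05 gave 3 in SST and 2 in PVALB cells, DESeq2 4, 2 and 1 in SST, PVALB and NGFC cells, no filter on low counts 4, 2 and 1, and the replicate block 5, 2 and 1. The genes passing went from 6, 3 and 0 to 33, 8 and 1 at an adjusted p under 0.05, to 138, 28 and 6 by DESeq2, to 146, 96 and 32 with no filter, and to 335, 72 and 10 with the block. In SST cells resolution 0.6 gave 3 and resolution 1.4 gave 2, and in PVALB cells no integration gave 0. Leaving out 1 library gave 0 to 5 in SST cells and 0 to 0 in PVALB cells. The cause was not tested, beyond the fewer libraries of these last fits.

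For genotype in cortex, the genes passing went from 0 in SST cells to 1 at an adjusted p under 0.05, 2 by DESeq2 and 22 with no filter, and from 0 in NGFC cells to 4 with no filter. The 2 genes of PVALB cells became 15 at an adjusted p under 0.05, 16 by DESeq2, 0 with library size only, 58 with no filter, 4 with the block and 13 with only the 2 groups compared. They became 1 at resolution 0.6, 1 at resolution 1.4, 0 with no integration, 0 with the family genes kept among the clustering features, 0 with doublets removed and 0 to 9 without 1 library. For genotype in hippocampus, an adjusted p under 0.05 gave 1 in SST cells, DESeq2 gave 2, 1 and 1 in SST, PVALB and NGFC cells, and no filter gave 23, 15 and 21, from 0 each.

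For region in null, DESeq2 gave 2 of the 10 genes and no filter gave 2 in SST cells, from 0. The 3 genes of SST cells became 13 at an adjusted p under 0.05, 36 by DESeq2, 124 with no filter, 0 with only the 2 groups compared, 5 at resolution 0.6, 1 at resolution 1.4, 5 with the family genes kept, 5 with the stricter cell filter and 0 to 6 without 1 library. The 1 gene of PVALB cells became 9 at an adjusted p under 0.05, 14 by DESeq2, 42 with no filter, 4 with the block, 6 with only the 2 groups compared, 0 with no integration and 0 to 2 without 1 library. In NGFC cells, from 0, no filter gave 15, the block 1 and only the 2 groups compared 7, the last from 3 libraries. The difference of region changes went from 0 to 2 in SST and 4 in PVALB cells with no filter. The cause was not tested.

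The block changed no other call of the 10 genes. None of the 10 passed to begin with, so none could weaken. Under an alternative, 27 log2 changes of Nrp1, Nrp2, Sema3a, Sema3e and Sema5a between WT regions and 4 of Nrp1 and Sema3e between null regions passed, and all 420 WT levels moved by less than 1 SD. Log2 changes that did not pass changed sign between WT regions in 6 of 138 cases with 1 library left out and 4 of 285 others. For genotype in cortex this was 20 of 225 and 16 of 319, for genotype in hippocampus 23 of 232 and 20 of 319, for region in null 9 of 225 and 14 of 321, and for the difference of region changes 40 of 225 and 18 of 297. Without null cortex replicate 2, NGFC cells had no null cortex library and the fits of that group were not run. Where a group was left with 1 library, that library was assumed to vary like the others.

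Plxnd1 was under the low-count filter in each interneuron class and did not pass without it. Cortical PVALB cells held few UMIs of Nrp1 and Nrp2, and hippocampal ones few of Sema3e. Null groups had 2 libraries each, so a result that did not pass shows no absence of a change. Replicate 1 was of another chemistry than the rest, libraries pooled animals, and the WT regions differed in pooled depth, in the clusters of SST and PVALB cells and in counts of glial markers. Glial markers and cortical PVALB clusters also differed between genotypes, as did the shares of cortical SST clusters when pooled over libraries.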

Other observations

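Clusters 18, 26, 27 and 33 took no class name. Pooled over WT libraries, cluster 27 (217 WT cells, led by Oxt and Avp) held Nrp1 at 123 CPM, Sema3c at 186.5 CPM and Plxna2 at 158.7 CPM. Cluster 26 (185 WT cells, led by Galr1 and Isl1) held Nrp2 at 81.8 CPM and Nrp1 at 44.0 CPM, and cluster 18 (420 WT cells, with few UMIs per cell) held Plxna2 at 204.1 CPM. The cluster named choroid plexus (169 WT cells), whose leading genes included Acta2 and which also scored for mural cells, held Nrp1 at 65.0 CPM and Sema6d at 41.4 CPM. Of PVALB cells, the cluster led by Crabp1 and Kit made up 7.25%, 1.82% and 2.66% in the WT cortex libraries and 24.2% and 21.1% in the null ones, a difference that was not tested.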
